A study of Rattus norvegicus with 16 samples.

Results

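The 32 genes described here bring pyruvate into the mitochondrial matrix, turn it into acetyl-CoA, run the tricarboxylic acid (TCA) cycle, or exchange its intermediates with the cytosol. They were listed by function, with earlier results of these data known. Of these, 30 were measured with 43 probe sets, out of 14217 genes and 31042 probe sets tested in all. Fh, which encodes the cycle enzyme fumarase, and Dlat, the acetyltransferase subunit of pyruvate dehydrogenase, were not found by symbol among the named probe sets and are not analysed here.

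The samples are left ventricles of 16 female rats, aged about 7 months, each hybridised to its own Affymetrix array. All belonged to generation 16 of a selection experiment on the N:NIH stock, in which breeders were chosen by a treadmill test at about 11 weeks. High Capacity Runners (HCR) are the line bred from the best runners and Low Capacity Runners (LCR) the line bred from the poorest. The groups, of 4 rats each, were HCR trained, HCR sedentary, LCR trained and LCR sedentary. Trained rats of either line ran uphill at 25 degrees on 5 days of each of 8 weeks, for 1.5 hours at a time, with 8 minutes of hard running alternating with 2 minutes of active recovery. Sedentary rats of the same age did not run. Each line is a single bred population with no unselected stock beside it, and the litters of the rats and the time between the last session and tissue collection are not given in the sources used here.

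The pyruvate dehydrogenase (PDH) complex commits pyruvate to oxidation. Its kinases switch it off by phosphorylation and its phosphatases switch it on again, so that the heart can shift between glucose and fatty acids. The acetyl-CoA made from either fuel enters the TCA cycle as citrate, and the cycle's dehydrogenases pass electrons to the respiratory chain. The malate-aspartate shuttle carries cytosolic reducing equivalents into the matrix, and anaplerotic enzymes refill the cycle.

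Values are log2 expression levels after robust multiarray averaging (RMA), and a difference of log2 values is a measure of fold change. Differences between groups were tested with limma across all probe sets, and a probe set was called when its Benjamini-Hochberg adjusted p was 0.05 or less. A ± gives the standard error of a fitted difference, or the SD where so marked, and intervals are 95% intervals of single genes. Each gene is represented by its brightest probe set. Heart muscle markers were bright in every rat: 11 of 12 listed markers were measured, and all 11 lay above the 90th percentile of every array. So did 4 of 8 fibroblast, 3 of 6 endothelial, 1 of 2 red blood cell and 1 of 4 atrial markers, and no adipocyte, immune or smooth muscle marker (9, 9 and 5 measured).

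Some arrays stood apart. In HCR sedentary rat 5, labelled female, the 4 probe sets of Xist, the RNA that silences an X chromosome in female cells, lay between 3.76 and 4.94, against 7.56 to 10.34 in the other 15 rats. In HCR sedentary rat 4, 11 of the 30 genes had their lowest value of all 16 rats. The mean deviation of the 30 genes from their own averages was -0.14 in that rat, against -0.062 to 0.080 in the other 15. The interquartile range of all values of an array was 1.97 to 2.10 in HCR sedentary rats and 2.14 to 2.21 in LCR sedentary rats, without overlap. For called genes it is said below whether the call held without rat 4 or rat 5, and where no gene was called, the differences of lowest p that moved by over 1.5 times without either are given again.

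The pathway transcripts varied little between rats. The SD within groups of 4 had a median of 0.080 over the 30 genes, between 0.036 for Mdh1 and 0.22 for Pdp2, while the median over all genes was 0.11. It was under 0.1 for 20 genes, 0.1 to under 0.15 for 6, and larger for Me1, Pdhx, Idh1 and Pdp2. The heat map of deviations by rat shows few blocks of colour that follow a group.

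**Figure D1:**
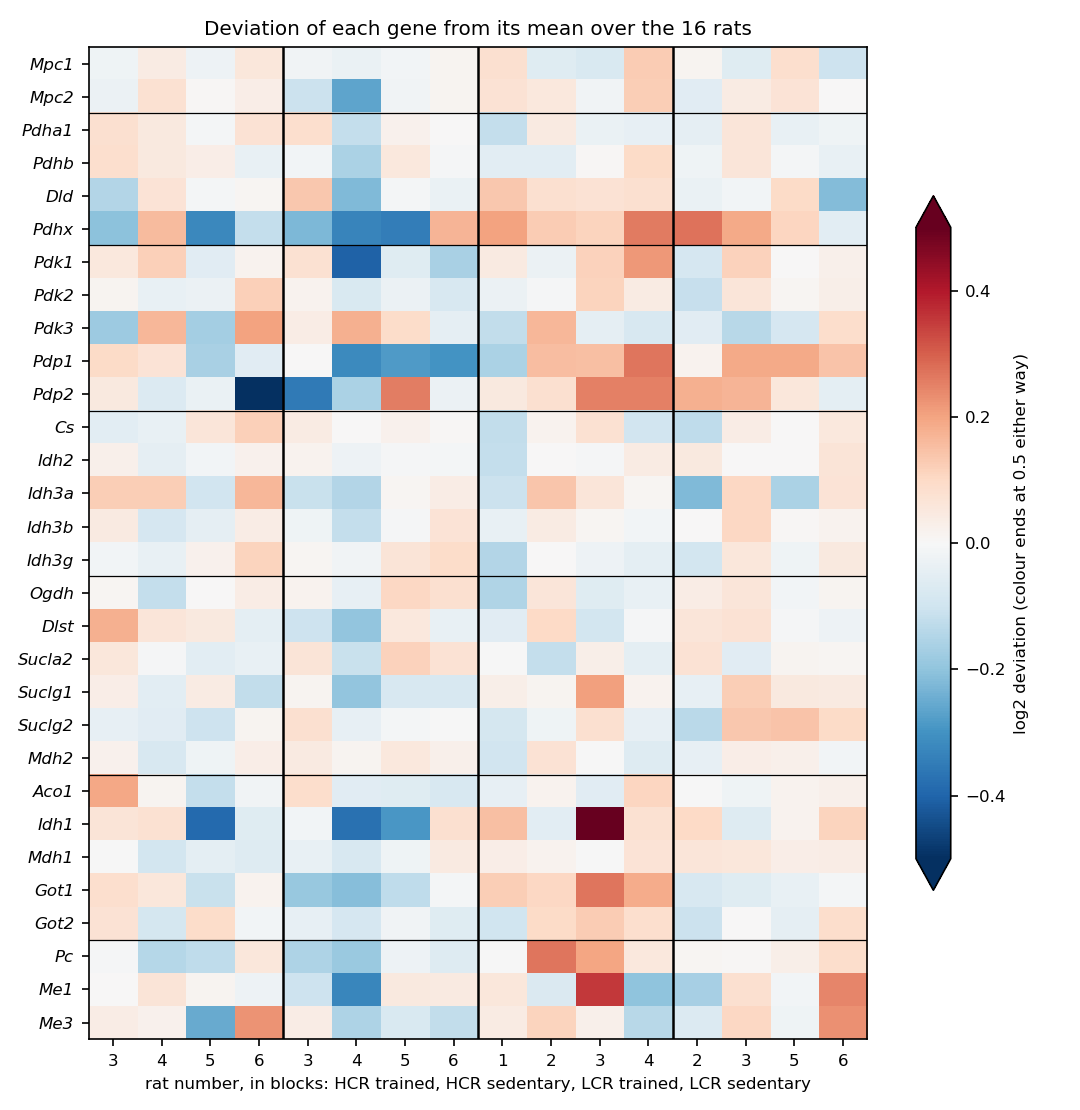
Deviation of the log2 expression of each of the 30 genes (rows, grouped by role) from its mean over the 16 rats (columns, in blocks of 4 per group); red is above and blue below the mean. The bluest column is HCR sedentary rat 4, whose mean deviation was -0.14.

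Between sedentary HCR and LCR rats 1 of the 30 genes was called, Pdp1, which was lower in HCR. Over all probe sets the share called in this comparison was 4.99%, so the count for the pathway is near the background. HCR sedentary means were above LCR sedentary means for 9 genes and below for 21, with a median difference of -0.045, against -0.018 over all genes and -0.082 over the 9488 genes at or above the median probe set. This split depends on the scaling: it was 1 above and 29 below with each array centred on its median, and 14 above and 16 below after quantile normalization of the deposited values. Without HCR sedentary rat 4 it was 11 above and 19 below with a median of -0.028, and without rat 5 it was 7 and 23 with -0.052.

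The intervals were narrow. For 23 of the 30 genes (76.7%) the whole 95% interval of the sedentary line difference lay within 1.25-fold in either direction, against 58.3% of all genes. In trained rats the count was 26 (86.7%), against 78.2% of all genes. Changes larger than 1.25-fold are outside the intervals of those genes, taken singly, and smaller ones are not.

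**Figure D2:**
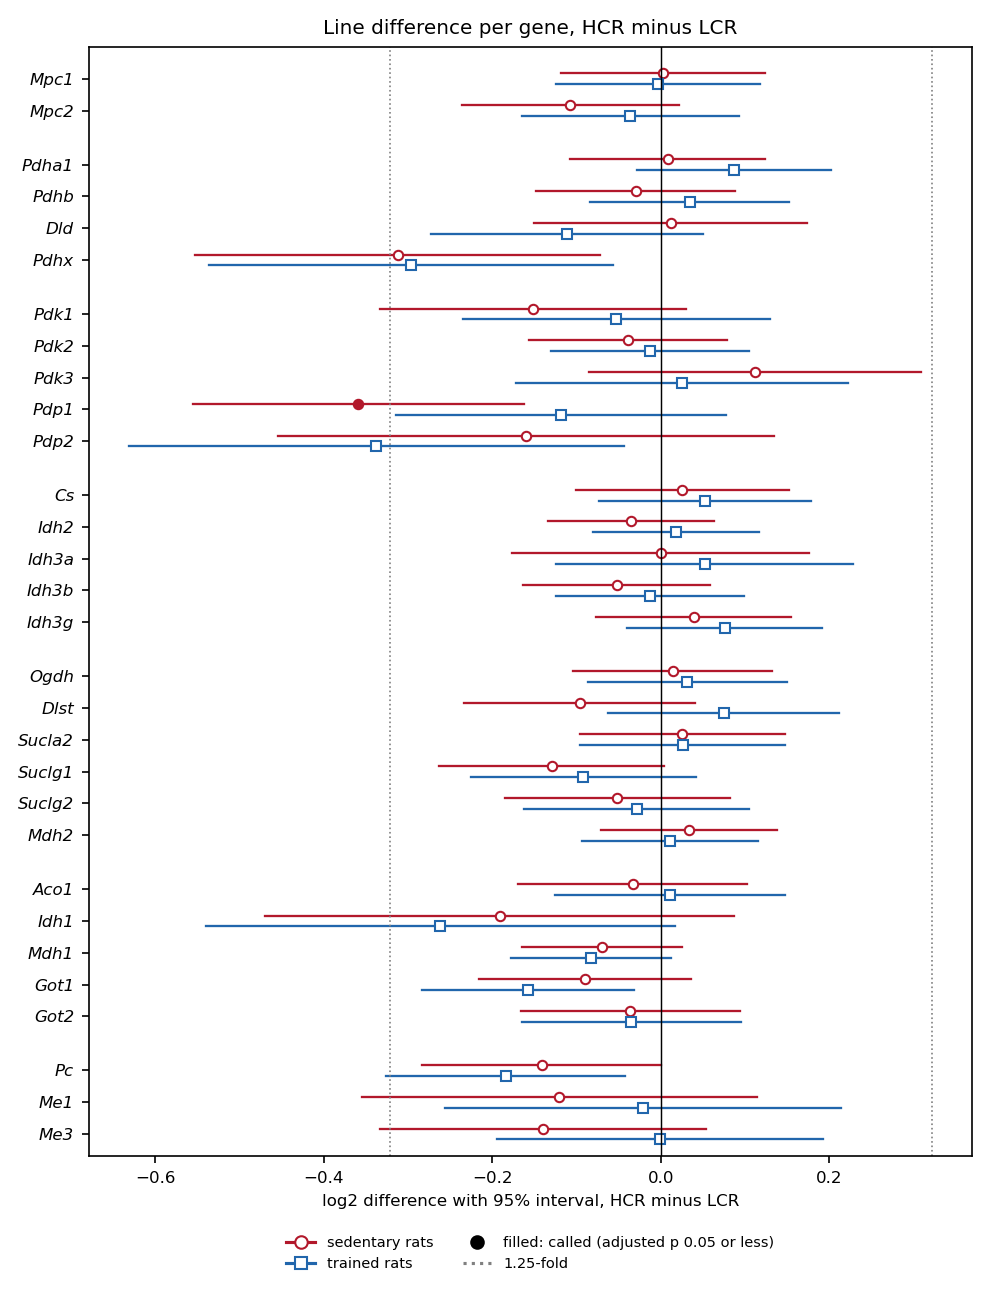
Log2 difference, HCR minus LCR, with its 95% interval for each of the 30 genes (rows, grouped by role) in sedentary rats (red circles) and trained rats (blue squares); dotted lines mark 1.25-fold. The only filled symbol, a call, is Pdp1 in sedentary rats at -0.36, and most intervals lie between the dotted lines.

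Pyruvate enters the matrix through the mitochondrial pyruvate carrier, a complex of Mpc1 and Mpc2. Mpc1 averaged 12.55 ± 0.042 in HCR trained, 12.52 ± 0.020 in HCR sedentary, 12.55 ± 0.10 in LCR trained and 12.52 ± 0.082 in LCR sedentary rats (SD, n = 4 each). These means lie within the spread of single rats. The line difference of Mpc1 in sedentary rats was 0.0031, with an interval of -0.12 to 0.12. That of Mpc2 was -0.11, with an interval of -0.24 to 0.022, and neither was called.

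The PDH complex joins an E1 enzyme made of Pdha1 and Pdhb, an E2 core, the E3 enzyme Dld, and Pdhx, the protein that tethers E3 to the core. Pdhx was the gene of the complex with the clearest line difference. HCR trained rats had 9.29, 9.65, 9.17 and 9.37, and HCR sedentary rats had 9.27, 9.16, 9.15 and 9.66. LCR trained rats had 9.69, 9.62, 9.60 and 9.76, and LCR sedentary rats had 9.77, 9.69, 9.60 and 9.44. In each line comparison the groups overlapped, because 1 HCR trained and 1 HCR sedentary rat reached the LCR range.

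Averaged over training, Pdhx was lower in HCR by -0.30 ± 0.080, or 1.23-fold, with an interval of -0.47 to -0.13 (limma adjusted p = 0.0454). It was the single gene of the 30 called in that comparison, in which 3.84% of all probe sets were called. Within sedentary rats the difference was -0.31 (adjusted p = 0.0984) and within trained rats it was -0.30 (adjusted p = 0.558). With all arrays it was thus called in neither training state alone, but without HCR sedentary rat 6 it was called within sedentary rats. Of all probe sets 4.99% were called in sedentary and 0.0966% in trained rats. The call averaged over training held without HCR trained rat 4, HCR sedentary rat 6 or LCR trained rat 2. It was lost without any of the other 13 arrays, among them HCR sedentary rat 4 (-0.28, adjusted p = 0.0946) and rat 5 (-0.28, adjusted p = 0.0948). The quantile-normalized values gave -0.23 (adjusted p = 0.115) and the fit with the rat number as a block gave -0.28 (adjusted p = 0.105), also not called.

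The other subunits lay close together between lines. Pdha1, the phosphorylated subunit of E1, averaged 12.55 ± 0.041 in HCR trained, 12.50 ± 0.085 in HCR sedentary, 12.46 ± 0.067 in LCR trained and 12.49 ± 0.049 in LCR sedentary rats (SD, n = 4 each). Its sedentary line difference was 0.0084, with an interval of -0.11 to 0.12, and that of Pdhb, its partner in E1, was -0.030. For Dld, which also serves the 2-oxoglutarate dehydrogenase complex, the sedentary difference was 0.012 and the trained one -0.11, none of them called. The trained groups of Dld did not overlap, with 10.64, 10.85, 10.77 and 10.79 in HCR trained rats against 10.92, 10.86, 10.86 and 10.87 in LCR trained rats.

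Pdhx was called between lines averaged over training, and Dld, the E3 enzyme that Pdhx holds, was not. Their promoter windows are shown to set the 2 genes side by side. Each covers 300 bases around the gene start in RefSeq (GRCr8), most of them upstream, at chr3:109886685-109886984 on the minus strand for Pdhx and chr6:53652298-53652597 on the minus strand for Dld. Capitals mark a match to GCGCANGCG, an element of the mitochondrial gene regulator NRF1.
Pdhx: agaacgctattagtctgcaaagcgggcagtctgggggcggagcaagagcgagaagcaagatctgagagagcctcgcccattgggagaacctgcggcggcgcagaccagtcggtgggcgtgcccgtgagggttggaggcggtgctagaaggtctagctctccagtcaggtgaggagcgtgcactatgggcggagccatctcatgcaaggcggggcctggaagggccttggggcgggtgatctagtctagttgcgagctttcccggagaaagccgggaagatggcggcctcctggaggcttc
Dld: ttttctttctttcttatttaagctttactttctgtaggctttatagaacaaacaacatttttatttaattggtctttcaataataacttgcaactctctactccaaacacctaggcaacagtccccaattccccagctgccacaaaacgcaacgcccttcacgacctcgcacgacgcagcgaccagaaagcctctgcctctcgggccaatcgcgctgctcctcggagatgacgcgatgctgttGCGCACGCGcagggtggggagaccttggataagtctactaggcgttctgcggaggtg
Windows were found for 28 of the 32 listed genes, and not for Pdp1, which was called between sedentary lines, nor for Pdp2, Pc and Idh3a. A match to that element on either strand lay in 2 of the 28 (7.14%), Dld and Sucla2, against 5.80% of all 33469 windows. The estrogen-related receptor element TCAAGGTCA lay in 0 of the 28, against 0.433% of all windows. A match describes these letters only.

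PDH is switched by the kinases Pdk1, Pdk2 and Pdk3 and by the phosphatases Pdp1 and Pdp2. Pdp1, the calcium-activated phosphatase that turns the complex on, was the gene of the whole list called between sedentary lines. HCR sedentary rats had 9.11, 8.79, 8.82 and 8.81, against 9.13, 9.30, 9.30 and 9.25 in LCR sedentary rats. The groups did not overlap, although HCR sedentary rat 3 lay just under the lowest LCR rat. Pdp1 was lower in HCR sedentary rats by -0.36 ± 0.093, or 1.28-fold, with an interval of -0.56 to -0.16 (limma adjusted p = 0.0416). In this bulk tissue fewer cells of a type and less RNA per cell cannot be told apart.

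In trained rats the groups of Pdp1 overlapped, at 9.20, 9.18, 8.94 and 9.05 in HCR and 8.95, 9.26, 9.26 and 9.38 in LCR. There the difference was -0.12, with an interval of -0.31 to 0.078 (adjusted p = 0.865). The sedentary call was lost on leaving out HCR sedentary rat 4 (-0.33, adjusted p = 0.112), rat 5 (-0.34, adjusted p = 0.116) or rat 6 (-0.33, adjusted p = 0.0840). It was also lost without LCR sedentary rat 3 (-0.34, adjusted p = 0.0786), rat 5 (-0.34, adjusted p = 0.0877) or rat 6 (-0.36, adjusted p = 0.105). After quantile normalization it was -0.23 (adjusted p = 0.118), so the sign stayed and the call did not. Averaged over training the difference was -0.24 (adjusted p = 0.0521).

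**Figure D3:**
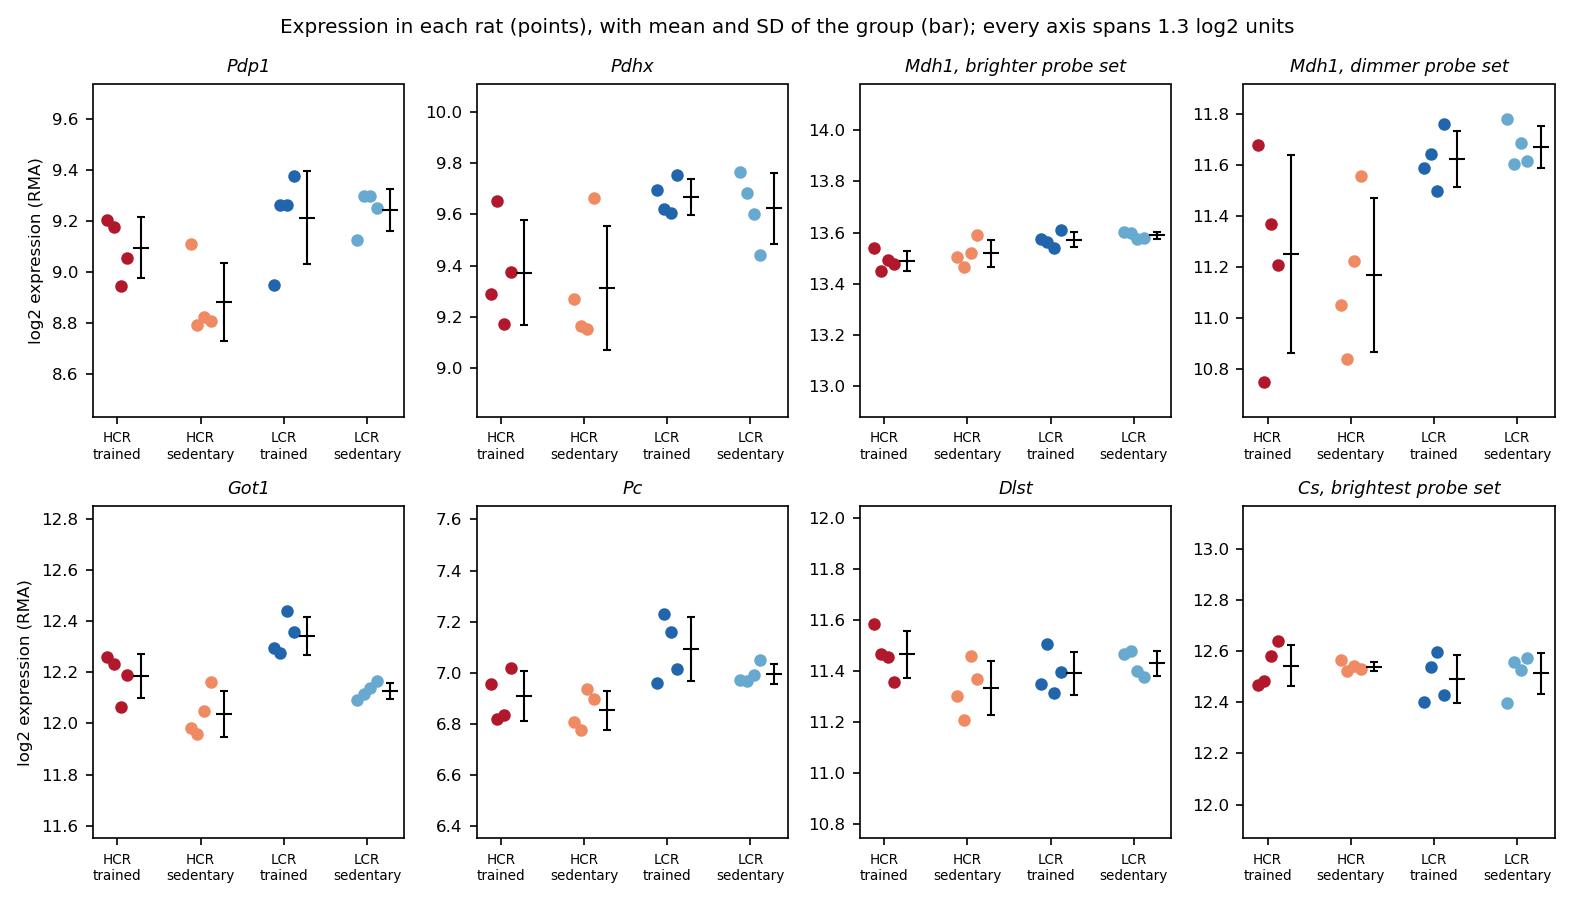
Log2 expression in each rat (points) with the group mean and SD (bars) for 8 probe sets, in the order HCR trained, HCR sedentary, LCR trained, LCR sedentary. Pdp1 separates HCR sedentary from LCR sedentary rats, Pdhx and the dimmer Mdh1 probe set lie lower in most HCR rats, and Cs is level in all groups.

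The other phosphatase, Pdp2, varied most within groups. Its trained line difference was -0.34 and its sedentary one -0.16, with intervals of -0.63 to -0.043 and -0.45 to 0.13, and neither was called (adjusted p = 0.611 and 0.459). Among the kinases, Pdk2, an abundant form in heart, averaged 12.33 ± 0.073 in HCR trained, 12.27 ± 0.047 in HCR sedentary, 12.34 ± 0.061 in LCR trained and 12.31 ± 0.077 in LCR sedentary rats (SD, n = 4 each). Its sedentary line difference was -0.039, with an interval of -0.16 to 0.079. Pdk1, known for its induction in low oxygen, differed by -0.15 in sedentary rats with an interval of -0.33 to 0.030. For Pdk3, the only gene of the 30 below the median probe set, the difference was 0.11, and no kinase was called.

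The enzymes from citrate to 2-oxoglutarate form the first stretch of the cycle. Cs, the citrate synthase often used as a marker of mitochondrial content, had 12.47, 12.49, 12.58 and 12.64 in HCR trained, 12.56, 12.52, 12.54 and 12.53 in HCR sedentary, 12.40, 12.54, 12.60 and 12.43 in LCR trained and 12.40, 12.56, 12.53 and 12.57 in LCR sedentary rats. All groups overlapped. The line difference of Cs was 0.026 in sedentary rats, with an interval of -0.10 to 0.15, and 0.053 in trained rats, with one of -0.074 to 0.18.

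NAD-dependent isocitrate dehydrogenase, a regulated step of the cycle, is built from Idh3a, Idh3b and Idh3g. Idh3a, its catalytic subunit, averaged 11.23 ± 0.12 in HCR trained, 11.10 ± 0.091 in HCR sedentary, 11.18 ± 0.10 in LCR trained and 11.10 ± 0.16 in LCR sedentary rats (SD, n = 4 each). The sedentary means matched to 2 decimals, with an interval of -0.18 to 0.18 for their difference. For Idh3b and Idh3g the sedentary line differences were -0.052 and 0.039, and for Idh2, the NADP-dependent mitochondrial form, -0.035. None of the 5 genes of this stretch was called.

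From 2-oxoglutarate onward, Ogdh and Dlst form the E1 and E2 parts of 2-oxoglutarate dehydrogenase. Ogdh averaged 12.73 ± 0.069 in HCR trained, 12.79 ± 0.065 in HCR sedentary, 12.70 ± 0.086 in LCR trained and 12.77 ± 0.032 in LCR sedentary rats (SD, n = 4 each). Its line difference was 0.014 in sedentary and 0.031 in trained rats. That of Dlst was -0.096 in sedentary and 0.075 in trained rats, with intervals of -0.23 to 0.041 and -0.062 to 0.21.

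Succinyl-CoA ligase pairs the shared subunit Suclg1 with Sucla2, in the ADP-using form, or Suclg2, in the GDP-using form. Suclg1 had a sedentary line difference of -0.13, with an interval of -0.26 to 0.0042 (adjusted p = 0.192). The nucleotide-specific subunits differed by less, 0.025 for Sucla2 and -0.052 for Suclg2. Mdh2, the mitochondrial malate dehydrogenase that regenerates oxaloacetate, averaged 12.87 ± 0.051 in HCR trained, 12.92 ± 0.017 in HCR sedentary, 12.86 ± 0.075 in LCR trained and 12.88 ± 0.034 in LCR sedentary rats (SD, n = 4 each). None of the 6 measured genes of this stretch was called between lines.

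The cytosolic and shuttle enzymes included the single gene whose probe sets gave different calls. Mdh1, the cytosolic malate dehydrogenase of the malate-aspartate shuttle, has 2 probe sets. On the brighter one HCR trained rats had 13.54, 13.45, 13.49 and 13.48, HCR sedentary rats 13.50, 13.46, 13.52 and 13.59, LCR trained rats 13.57, 13.56, 13.54 and 13.61, and LCR sedentary rats 13.60, 13.60, 13.57 and 13.58. Averaged over training the difference was -0.076, with an interval of -0.14 to -0.0092, and it was not called (adjusted p = 0.155).

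On the dimmer Mdh1 probe set HCR trained rats had 11.68, 10.75, 11.37 and 11.21, HCR sedentary rats 11.05, 10.84, 11.22 and 11.56, LCR trained rats 11.59, 11.64, 11.50 and 11.76, and LCR sedentary rats 11.78, 11.60, 11.68 and 11.61. The sedentary groups did not overlap, and 1 HCR trained rat lay within the LCR trained range. Averaged over training this probe set was lower in HCR by -0.44 ± 0.11 (limma adjusted p = 0.0426), 1.35-fold. That call held without HCR trained rat 3, HCR sedentary rat 6 or LCR trained rat 2, and without any of the other 13 arrays it was lost (-0.46 to -0.35, adjusted p from 0.0513 to 0.0860). It was also lost after quantile normalization (-0.39, adjusted p = 0.0655), with array weights (-0.38, adjusted p = 0.0632) and with the rat number as a block (-0.42, adjusted p = 0.0767). Which transcript each probe set reports was not tested.

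Got1 and Got2 are the cytosolic and mitochondrial aspartate aminotransferases of the same shuttle. In trained rats the Got1 groups did not overlap, with 12.26, 12.23, 12.06 and 12.19 in HCR against 12.30, 12.28, 12.44 and 12.36 in LCR. Their difference was -0.16 ± 0.060, not called (adjusted p = 0.550). For Got2 the line differences were -0.036 in sedentary and -0.035 in trained rats. Idh1, the cytosolic NADP-dependent isocitrate dehydrogenase, gave -0.19 and -0.26, not called, and Aco1, the cytosolic aconitase that also binds iron-regulated RNAs, gave -0.033 and 0.011.

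Among enzymes that fill or drain the cycle, Pc, the pyruvate carboxylase that makes oxaloacetate, had the lowest p of the list between trained lines. HCR trained rats had 6.96, 6.82, 6.83 and 7.02 and HCR sedentary rats 6.81, 6.77, 6.94 and 6.90, while LCR trained rats had 6.96, 7.23, 7.16 and 7.01 and LCR sedentary rats 6.97, 6.97, 6.99 and 7.05. The sedentary groups did not overlap and the trained ones did. The difference was -0.18 ± 0.067 in trained rats (adjusted p = 0.531) and -0.14 ± 0.067 in sedentary rats (adjusted p = 0.182), and neither was called. Averaged over training it was -0.16 (adjusted p = 0.0620), which passed when each array was centred on its median, when 1 probe set per gene was tested, with array weights, or without LCR trained rat 1.

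The malic enzymes Me1, cytosolic, and Me3, mitochondrial, turn malate into pyruvate with NADP. Me1 averaged 9.44 ± 0.037 in HCR trained, 9.34 ± 0.18 in HCR sedentary, 9.46 ± 0.24 in LCR trained and 9.46 ± 0.17 in LCR sedentary rats (SD, n = 4 each). The sedentary line difference was -0.12 for Me1 and -0.14 for Me3, with intervals of -0.36 to 0.11 and -0.33 to 0.054, and neither was called.

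In trained rats 0 of the 30 genes were called between lines by limma, against 0.0966% of all probe sets, and 4 (13.3%) had an unadjusted p under 0.05, against 8.40% of all genes. In sedentary rats 2 (6.67%) had one, against 31.4% of all genes, and averaged over training 8 (26.7%), against 27.9%. The groups did not overlap for 2 genes in sedentary rats, Pdp1 and Pc, against 18.3% of all probe sets. They did not overlap for 3 genes in trained rats, Dld, Mdh1 and Got1, against 3.14%. In all 5 of these cases HCR was the lower group. Among genes at or above the median probe set, HCR was the lower group for 1522 and the higher for 508 of those without overlap in sedentary rats, and for 213 and 155 in trained rats. In trained rats HCR means were above LCR means for 12 of the 30 genes and below for 18, with a median of -0.013 against -0.0034 over all genes. After quantile normalization this turned to 16 above and 14 below, with a median of 0.0087, and without HCR trained rat 5 it was 15 and 15.

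Marker levels of other cells in the sedentary lines are set beside these values. Of all genes, 6591 had higher means in HCR sedentary rats and 7626 lower. Among genes at or above the median probe set these counts were 2946 and 6542. By limma 4.99% of all probe sets were called. Whether the marker splits below go beyond these shares was not tested. Of 9 measured adipocyte markers 8 had higher means in HCR sedentary rats, none called, and their mean deviation ran from 0.046 to 0.11 in HCR sedentary rats and -0.12 to -0.024 in LCR sedentary rats. Of 8 fibroblast markers 6 had lower means in HCR and 1 was called, with mean deviations of -0.20 to 0.058 in HCR and 0.021 to 0.22 in LCR. All 5 smooth muscle markers had higher means in HCR and 1 was called, with mean deviations of -0.12 to 0.11 and -0.27 to 0.012. The 11 cardiomyocyte markers ran from -0.099 to -0.0019 in HCR and -0.017 to 0.041 in LCR, with 0 called. Averaged over training, the comparison in which Pdhx was called, 3 markers were called and all were higher in HCR. They were Acta2, the smooth muscle actin (0.31, adjusted p = 0.0186), Cd79b, a B cell receptor component (0.22, adjusted p = 0.0222), and Nppa, the atrial natriuretic peptide (1.01, adjusted p = 0.0217). Each was the only call of its list, and 3.84% of all probe sets were called. All 5 smooth muscle markers were higher in HCR there. Lower in HCR were 3 of 9 immune markers (down to -0.31) and 1 of 4 atrial markers (-0.68). The part of these marker levels in the Pdp1 and Pdhx results was not tested.

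Training left the pathway transcripts close to sedentary levels. By limma 0 of the 30 genes were called in HCR, in which 0% of all probe sets were called, and 0 in LCR, in which 0.00322% were. At an unadjusted p under 0.05 there were 2 genes in HCR (6.67%) and 1 in LCR (3.33%), against 14.7% and 6.77% of all genes. The 95% interval lay within 1.25-fold for 25 genes in HCR (83.3%) and 27 in LCR (90.0%), against 70.9% and 80.2% of all genes.

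**Figure D4:**
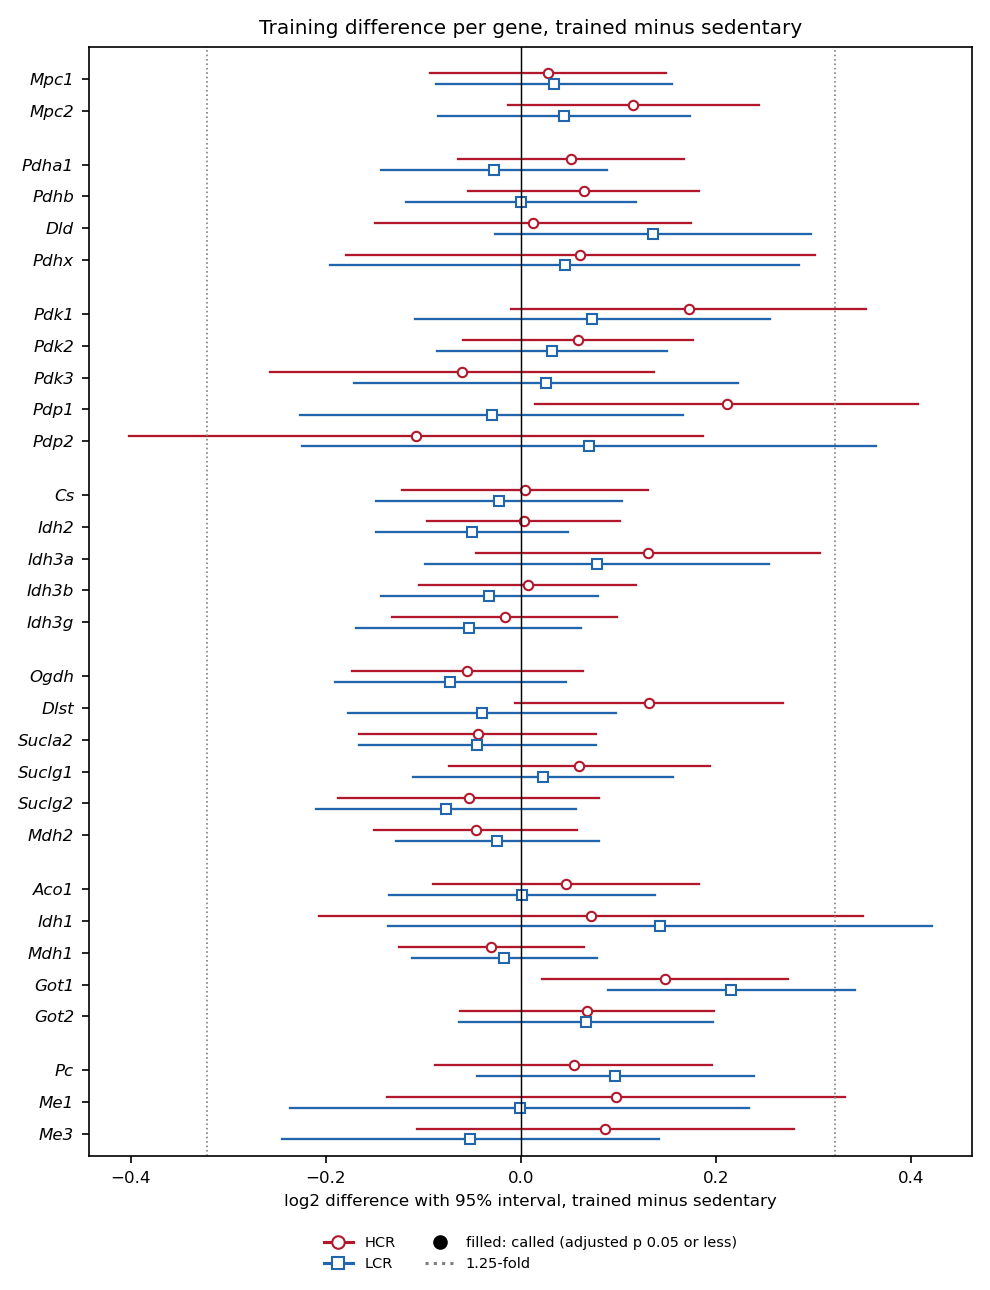
Log2 difference, trained minus sedentary, with its 95% interval for each of the 30 genes (rows, grouped by role) in HCR (red circles) and LCR (blue squares); dotted lines mark 1.25-fold. No symbol is filled, since no gene was called, and Got1 lies right of zero in both lines at 0.15 and 0.22.

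In HCR, trained means were above sedentary means for 22 genes and below for 8, with a median of 0.053, against 0.0059 over all genes and 0.046 over those at or above the median probe set. Without HCR sedentary rat 4 the split was 17 and 13 with a median of 0.014, so that much of it rested on that array. Without rat 5 it was 23 and 7 with 0.031. After quantile normalization it was 19 and 11 with 0.0095, and with each array centred on its median 24 and 6 with 0.089. In LCR the split was 16 and 14 with a median of 0.00074, and centring turned it to 14 and 16 with -0.010.

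Got1 was the gene of lowest p for training in both lines. Trained and sedentary HCR rats overlapped, at 12.26, 12.23, 12.06 and 12.19 against 11.98, 11.96, 12.05 and 12.16. Trained and sedentary LCR rats did not, at 12.30, 12.28, 12.44 and 12.36 against 12.09, 12.11, 12.14 and 12.16. The difference was 0.15 ± 0.060 in HCR (adjusted p = 0.307) and 0.22 ± 0.060 in LCR (adjusted p = 0.539). Averaged over the lines it was 0.18 ± 0.042, with an interval of 0.093 to 0.27, and it was not called (adjusted p = 0.236).

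Got1 was the only gene of the 30 whose LCR groups did not overlap, against 2.82% of all probe sets, and in HCR there was none, against 8.00%. Across both lines 0.00644% of all probe sets were called for training and 0 of the 30 genes. At an unadjusted p under 0.05 there was 1 gene (3.33%), against 10.6% of all genes. All 30 intervals of the averaged difference lay within 1.25-fold, against 92.2% of all genes.

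The next lowest p in HCR belonged to Pdp1, with a training difference of 0.21 ± 0.093 (adjusted p = 0.336), and to Dlst, with 0.13 ± 0.065 (adjusted p = 0.380). Dlst had 11.58, 11.47, 11.46 and 11.36 in HCR trained rats against 11.30, 11.21, 11.46 and 11.37 in HCR sedentary rats, and 11.35, 11.50, 11.31 and 11.40 in LCR trained rats against 11.47, 11.48, 11.40 and 11.38 in LCR sedentary rats. Its groups overlapped in each line. In LCR, Dld followed Got1 with 0.14 (adjusted p = 0.925), at 10.92, 10.86, 10.86 and 10.87 in trained against 10.75, 10.77, 10.88 and 10.57 in sedentary rats, and Pc with 0.097 (adjusted p = 0.965).

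Averaged over the lines, Pdk1 had a training difference of 0.12 (adjusted p = 0.560). HCR trained rats had 10.57, 10.64, 10.46 and 10.53 against 10.59, 10.11, 10.46 and 10.35 in HCR sedentary rats, and LCR trained rats had 10.56, 10.49, 10.63 and 10.73 against 10.43, 10.63, 10.52 and 10.54 in LCR sedentary rats. The lowest of these was HCR sedentary rat 4, without which the difference was 0.078 (adjusted p = 0.734), and the groups overlapped. For Mpc2 the difference was 0.080 (adjusted p = 0.594), at 11.32, 11.43, 11.36 and 11.39 in HCR trained against 11.25, 11.09, 11.34 and 11.37 in HCR sedentary rats, and 11.42, 11.41, 11.34 and 11.48 in LCR trained against 11.30, 11.39, 11.42 and 11.36 in LCR sedentary rats. Without HCR sedentary rat 4, again the lowest, it was 0.051 (adjusted p = 0.765). For Cs it was -0.0091, with an interval of -0.098 to 0.080.

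Whether the lines responded differently to training was tested as an interaction. By limma 0 of the 30 genes and 0% of all probe sets were called, and 0 of the 30 had an unadjusted p under 0.05, against 10.7% of all genes. The genes of lowest p were Dlst (0.17 ± 0.092, adjusted p = 0.549), Pdp1 (0.24 ± 0.13, adjusted p = 0.551) and Dld (-0.12 ± 0.11, adjusted p = 0.699), each the HCR training difference minus that in LCR. Without HCR sedentary rat 4 that of Dld was -0.19 (adjusted p = 0.670). These intervals were wider, and 20 of 30 lay within 1.25-fold.

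Other genes of the same pathway were also listed by function, and 30 of 34 were measured. Between sedentary lines 7 of these (23.3%) had an unadjusted p under 0.05, against 6.67% of the 30 genes above and 31.4% of all genes. The median size of their difference, in either direction, was 0.091, against 0.052 and 0.12. With 4.99% of all probe sets called, limma called 1 of them, Slc25a12, the aspartate-glutamate carrier of the malate-aspartate shuttle. Its values were 10.13, 10.18, 10.10 and 10.26 in HCR sedentary rats, against 10.29, 10.47, 10.38 and 10.47 in LCR sedentary rats, without overlap. The difference was -0.23 ± 0.058 (limma adjusted p = 0.0372), and the call was lost after quantile normalization (-0.13, adjusted p = 0.187) and without HCR sedentary rat 3, 4 or 5 or LCR sedentary rat 3, 5 or 6 (adjusted p from 0.0515 to 0.112), and narrowly with only the sedentary groups in the fit (adjusted p = 0.0501). Succinate dehydrogenase, the cycle enzyme that is also respiratory complex II, lay close between lines, with sedentary differences of -0.046 for Sdha and -0.0030 for Sdhb.

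Pdk4, the PDH kinase induced by fasting and fatty acids, was the most variable gene of these lists. HCR trained rats had 10.49, 10.76, 9.78 and 10.21, HCR sedentary rats 10.76, 10.22, 9.70 and 10.10, LCR trained rats 10.20, 10.33, 10.93 and 10.08, and LCR sedentary rats 8.79, 10.35, 9.09 and 9.58. On this probe set the LCR sedentary group was the lowest on average but overlapped the others. The line difference in sedentary rats was 0.74 ± 0.30 (adjusted p = 0.127) and the training difference in LCR was 0.93 ± 0.30 (adjusted p = 0.629), neither of them called. A dimmer Pdk4 probe set averaged 6.97 in LCR trained and 6.45 in LCR sedentary rats. Those groups narrowly did not overlap, with the lowest trained rat at 6.588 and the highest sedentary rat at 6.581.

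Of 11 regulators of mitochondrial genes, all measured, 1 was called, Tfam, both in sedentary rats and averaged over training. Over all probe sets 4.99% and 3.84% were called there. In sedentary rats 5 of the 11 (45.5%) had an unadjusted p under 0.05, against 31.4% of all genes. Tfam, the factor that packages and transcribes mitochondrial DNA, had 8.96, 8.75, 8.76 and 8.93 in HCR sedentary rats against 9.12, 9.11, 9.11 and 9.17 in LCR sedentary rats, without overlap. The difference was -0.27 ± 0.070 in sedentary rats (limma adjusted p = 0.0404) and -0.22 averaged over training (adjusted p = 0.0258). Without HCR sedentary rat 5 these were -0.24 (adjusted p = 0.120) and -0.20 (adjusted p = 0.0579). The sedentary call was also lost without HCR sedentary rat 4 or 6 or any LCR sedentary rat (adjusted p from 0.0540 to 0.114). The averaged one was lost without HCR trained rat 6, HCR sedentary rat 4, LCR trained rat 3 or 4, or LCR sedentary rat 6 (adjusted p from 0.0524 to 0.0587), and quantile normalization ended both (adjusted p = 0.130 and 0.0540). Over the 11 regulators the sedentary line differences ran from -0.34 to 0.56, with 5 higher and 6 lower in HCR. The coactivator Ppargc1a and the receptor Esrra, both known for driving TCA cycle genes, had differences of -0.14 and -0.074 and were not called. A second Ppargc1a probe set, nearly as bright, averaged 8.71 in HCR and 9.06 in LCR sedentary rats. Its groups did not overlap, as for 18.3% of all probe sets. On a dim Ppargc1a probe set HCR was the higher group, at 4.48 against 4.32.

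Within genes that have several probe sets, the dimmer ones mostly gave small differences as well. An exception was the dimmer Mdh1 probe set, at -0.50 in sedentary rats (limma adjusted p = 0.0691). That difference passed with each array centred on its median (adjusted p = 0.0444) and without HCR trained rat 4 (adjusted p = 0.0415), and not after quantile normalization (adjusted p = 0.130). A second Me1 probe set had the opposite sign to the brighter one, with sedentary means of 8.90 in HCR and 8.85 in LCR. The 4 probe sets of Cs had sedentary line differences between -0.030 and 0.19, and none was called. A second Pdk1 probe set gave -0.24 (adjusted p = 0.0905) where the brighter one gave -0.15, and a dim Got2 probe set gave -0.22 (adjusted p = 0.104) without overlap of the groups, where the brighter one gave -0.036. Of the 11 genes with several probe sets, Mdh1 alone had a call on a probe set other than its brightest, in the difference averaged over training.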

How the data were processed

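RNA from the left ventricle of 16 rats was hybridised to 1 array each, and groups and rat numbers came from the sample titles, so replicates are separate animals. RMA gave the log expression values that the authors deposited, per the labels' design description and the submitters' processing notes, in which limma is named too. That method corrects background, quantile-normalizes probes and summarises each probe set. No source used here gives the log base. The deposited values were taken as log2, since they run from 3.24 to 14.54, and with another base signs and tests would hold but not folds. No columns of per-sample values were left unmapped.

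Of 31099 probe sets, 57 Affymetrix controls were left out and 31042 tested without a filter on signal. Array medians were 5.85 to 5.95 and arrays correlated at r between 0.984 and 0.995. Precision is limited by having 4 arrays per group. Limma 3.58.1, run in R 4.3.3 with lmFit, contrasts.fit and eBayes, fitted 1 mean per group over all 16 arrays, with 12 residual degrees of freedom and no covariate. All tests were two-sided, and Benjamini-Hochberg adjustment ran over all probe sets within each of 7 comparisons. Adjusted p-values of genes come from this limma fit or, where said, an alternative to it.

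Gene names came from the platform annotation, and the gene IDs of all 30 measured genes matched RefSeq with the same symbol. The members and gene lists were chosen with earlier results of these data known. Values of every rat are given for called genes and, in comparisons that called none, for the 3 of lowest p. Another 10 genes were preset for description with group means, of which Fh was not analysed here. Alternatives were other scalings, filters, array weights, a variance trend, 1 probe set per gene, the replicate block, only the groups compared, and leaving out each array.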

Additional observations from a re-analysis of the deposited data

Results flagged for a closer look

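Among 176 groups of 4 values (43 probe sets and the mean deviation of the 30 genes, in 4 groups), 12 had a rat far from the other 3 by Dixon's test at its 95% critical value. Chance alone gives about 1 in 20 such groups. The mean deviation of HCR sedentary rat 4 was -0.14, with the other 3 HCR sedentary rats between -0.024 and -0.012.

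In the rest of the HCR sedentary group, rat 3 was high for Pdp1 (9.11, others 8.79 to 8.82) and for Aco1 (8.63, others 8.46 to 8.48). Among HCR trained rats, rat 6 was low on both Pdp2 probe sets, at 7.62 (others 8.21 to 8.33) and 7.70 (others 8.06 to 8.09). Rat 5 of that group was low for Idh3a (11.05, others 11.27 to 11.32) and on the dim probe set of Sucla2 (5.07, others 5.16 to 5.17).

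In LCR trained rats, rat 1 was high for Dld (10.92, others 10.86 to 10.87), rat 3 was high for Suclg1 (12.06, others 11.87 to 11.89) and rat 4 was low on the dim Sucla2 probe set (4.97, others 5.19 to 5.21). In LCR sedentary rats, rat 2 was low for Suclg2 (10.80, others 11.03 to 11.08) and rat 6 was high on the dim Pdk3 probe set (5.19, others 4.98 to 4.99).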

How the results depend on the processing

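In sedentary rats the line comparison called 1 gene, Pdp1, in 8 of the 9 alternatives that kept all arrays of the groups compared, and 0 after quantile normalization. With 1 array left out the count was 0 to 1, with Pdhx called in place of Pdp1 without HCR sedentary rat 6, and the count over all probe sets was 35 to 1994. Averaged over training the line comparison called Pdhx alone. The count was 3 with each array centred on its median, with 1 probe set per gene or with array weights (Pdhx, Pdp1 and Pc), 2 with dim probe sets left out (Pdhx and Pdp1), 2 when any probe set of a gene counted (Pdhx and Mdh1), and 0 after quantile normalization. With the replicate block it was 1, Pdp1 in place of Pdhx. With 1 array left out it was 0 to 2, and 520 to 2575 over all probe sets. The other 5 comparisons called 0 genes of the list in every alternative, and the sign of each named difference was the same in all alternatives run for it.

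The rat numbers are shared by the groups. Pairs of rats with the same number had correlations of their deviations between -0.23 and 0.34 (median 0.035, n = 16). Pairs with other numbers had correlations between -0.41 and 0.46 (median -0.0064, n = 80). Of 16 arrays 5 correlated best with their own number, and the count to be had by chance was not worked out. These values do not settle whether the numbers mark pairs. The main fit does not take them as pairs, and the replicate block is given as an alternative. With the replicate block Pdp1 gave -0.39 in sedentary rats (adjusted p = 0.0239) and Pdhx gave -0.28 averaged over training (adjusted p = 0.105), and all probe sets called in sedentary rats numbered 3000, against 1549 without it.

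Pdp1 was called in 17 of 24 settings (difference -0.43 to -0.23) and Pdhx in 8 of 23 (-0.36 to -0.23). The causes of these differences between settings were not tested. Levels of protein or activity were not measured, differences near background are compressed, and 4 arrays per group limit what can be called.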
